A study of Mus musculus with 6 samples.

Results

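The plasminogen activator system was followed through 4 genes, Plau, Plat, Plaur and Serpine2, which are 4 of the 48820 Ensembl identifiers in the count table. They were taken by symbol for what their proteins do, with the symbols matched to identifiers through GENCODE M21. The libraries were made from spheroids, clusters of cells grown as small balls, of 4T1, a mouse triple-negative breast cancer line. The compared groups were 3 libraries labelled LATS1/2 double-knockout (dKO) and 3 libraries labelled wild type (WT), both from spheroids kept in RPMI medium with fetal bovine serum and antibiotics. LATS1 and LATS2 are the Hippo pathway kinases that restrain the coactivators YAP and TAZ. The labels call the libraries of a group biological replicates, but leave unsaid whether separate cultures were used, how the knockout was made or whether the dKO line is a single clone, so the p-values measure only the spread between these libraries, which may be technical.

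Plau encodes urokinase (uPA) and Plat encodes tissue-type plasminogen activator (tPA), serine proteases that cut plasminogen into plasmin, a broad protease that dissolves fibrin and cuts matrix proteins. Urokinase works at the cell surface while bound to its receptor uPAR, the lipid-anchored product of Plaur. Serpine2 encodes protease nexin-1, a serpin that traps thrombin, urokinase and tPA. In breast tumours, urokinase and its receptor are known for their link to invasion.

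Library totals ran from 38194478 to 42486146 counts in the libraries labelled dKO and from 40150225 to 49630116 in WT. Lats1 was at 50.9 ± 2.55 CPM (the count scaled to its library's total, with TMM, a correction for library composition) in the libraries labelled dKO and at 153 ± 6.36 CPM in WT (SD, n = 3 each). Lats2 was at 77.9 ± 12.5 CPM in the libraries labelled dKO and at 27.2 ± 4.01 CPM in WT, which goes against the label if read as transcript loss. A frameshifting edit need not lower a gene's count, so Lats2 is no check of the knockout, and directions are given between libraries as labelled. WT 2 and dKO 3 differed most from their own groups: the chi-square per degree of freedom between 2 libraries of a group was 44.6 to 60.4 for pairs with either of them, against 8.43 for dKO 1 with dKO 2 and 11.5 for WT 1 with WT 3. All 8 epithelial markers (Epcam, Cdh1, keratins and claudins) were detected, with summed levels of 5018 to 5741 CPM in the libraries labelled dKO and 6180 to 6298 CPM in WT. Within that sum 3 were called higher, 3 lower and 2 not called, a share called of 75.0% beside 57.3% of all tested genes. Log2 fold changes were 1.63 for Krt19, 1.06 for Cdh1 and 0.64 for Cldn3 (edgeR adjusted p = 3.28e-06, 3.71e-06 and 0.00244). They were -1.46 for Epcam, -0.66 for Krt18 and -0.55 for Krt8 (edgeR adjusted p = 4.68e-07, 0.000558 and 0.00404). Cldn4 and Krt7 were not called.

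The urokinase gene and its receptor gene were both lower in the libraries labelled dKO, the tPA gene was not called in either direction, and Serpine2 was at or near 0 counts in every library. Of the 4 members, 3 passed the count filter and 2 were called lower at an adjusted p under 0.05 (edgeR). Across all 15807 genes tested, 28.7% were called lower and 57.3% were called in either direction, and the groups did not overlap for 65.6%. A gene called lower was thus common in this comparison, and the members are described by their size and consistency.

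**Figure D1:**
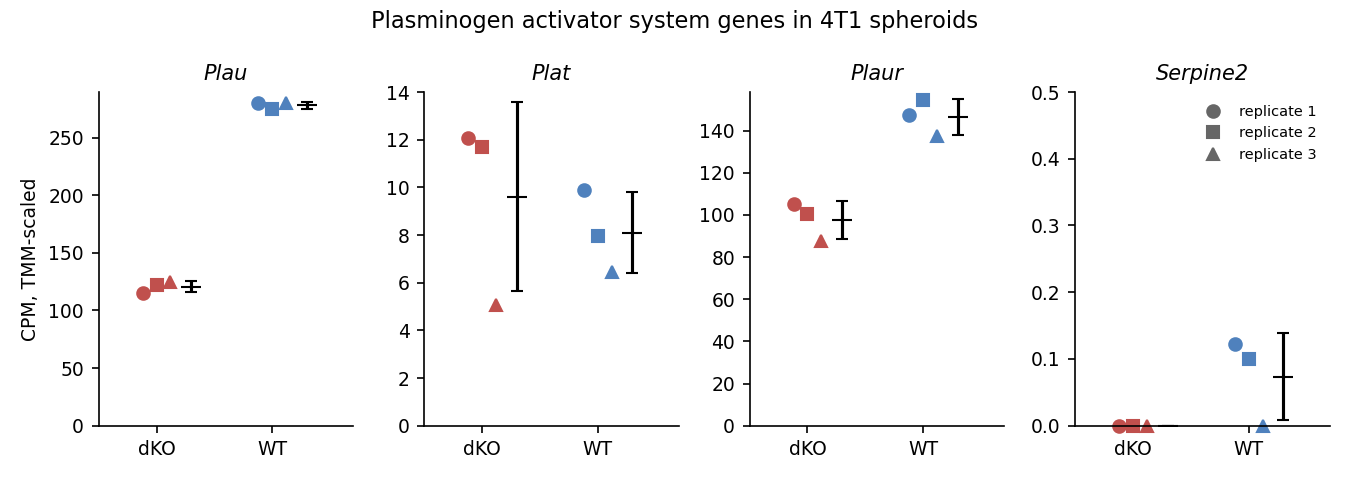
Level of each member in every library, in TMM-scaled CPM on the vertical axis, with libraries labelled dKO in red and WT in blue; symbols mark replicates 1 to 3 and black bars the mean ± SD of 3 libraries. Plau and Plaur do not overlap between groups, Plat overlaps, and Serpine2 stays under 0.2 CPM on an axis of its own scale.

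Plau (ENSMUSG00000021822, GRCm38 chromosome 14, 20836660 to 20843385, plus strand) was at 116, 122 and 125 CPM in dKO 1, dKO 2 and dKO 3, against 280.2, 275 and 280.0 CPM in WT 1, WT 2 and WT 3. The highest library labelled dKO lay far below the lowest WT library, and the spread within each group was small. On the log2 scale the fitted change was -1.21 ± 0.06 (SE, edgeR adjusted p = 8.77e-07), so that the level decreased by 56.6%, with an approximate 95% interval of -1.35 to -1.06. Among the tested genes, 24.8% had a fitted change at least this large in either direction. Plau was also called when the test asked for more than a 1.5-fold change (edgeR adjusted p = 1.26e-05). No annotated gene overlaps Plau.

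Plaur (ENSMUSG00000046223, chromosome 7, 24462484 to 24475968, plus strand) was at 105, 100.3 and 87.6 CPM in dKO 1, dKO 2 and dKO 3, against 147, 155 and 138 CPM in WT 1, WT 2 and WT 3. The groups did not overlap, and dKO 3 was the lowest of its group. Fitted on the log2 scale, the change was -0.58 ± 0.09 (SE, edgeR adjusted p = 0.000453), so that the level decreased by 33.3%, with an interval of -0.78 to -0.39. A change of this size or more was fitted for 50.8% of tested genes. Tested against a 1.5-fold change, Plaur was not called (adjusted p = 0.532). It has no overlapping annotated gene.

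Leukocytes and macrophages also make uPAR and urokinase, so their markers are given beside these genes. Of 12 macrophage and leukocyte markers, 4 were tested, with 3 called higher and 1 called lower, and the summed level was 82.2 to 214.5 CPM in the libraries labelled dKO and 16.2 to 53.5 CPM in WT. Most of that sum in dKO came from Csf1r, at 62.7 to 189.6 CPM in the libraries labelled dKO and 1.01 to 14.2 CPM in WT. Cd68 was also called higher, at 13.7 to 17.3 CPM in the libraries labelled dKO and 1.91 to 2.29 CPM in WT (log2 fold change 2.86, edgeR adjusted p = 2.35e-06), while Cd14 was called lower, at 5.12 to 5.87 CPM in the libraries labelled dKO and 12.9 to 37.2 CPM in WT. Adgre1, the macrophage gene of F4/80, was at 2.12, 2.53 and 0 CPM in dKO 1, dKO 2 and dKO 3 and at 0 in WT. The pan-leukocyte gene Ptprc was at 0.105, 0.418 and 0 CPM in dKO 1, dKO 2 and dKO 3 and at 0 in WT, and Cd3e and Fcgr3 were at 0 in every library. The 12 fibroblast markers summed to 12.1 to 12.9 CPM in the libraries labelled dKO and 41.8 to 67.1 CPM in WT, with 5 tested, 2 higher and 3 lower, and Thy1 and Lum at 0 throughout. Most of the WT sum came from Pdgfra, at 28.6 to 44.9 CPM in WT, while Postn and Col1a2 were the 2 called higher. The 10 endothelial and pericyte markers summed to 4.28 to 6.76 CPM in the libraries labelled dKO and 22.9 to 27.0 CPM in WT, with 4 tested, 2 of them lower, and Kdr and Emcn at 0 throughout. Most of that sum in both groups came from Flt1, at 20.3 to 24.4 CPM in WT. Of all tested genes, 28.6% were called higher and 28.7% lower. Markers such as Itgam, Col1a2, Pi16 and Rgs5 passed the count filter only through the group in which they were high. The counts of called markers are therefore descriptions. The part of these markers in the levels of Plau and Plaur was not tested. In bulk RNA, fewer cells that express a gene and less RNA per cell cannot be told apart.

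Plat (ENSMUSG00000031538, chromosome 8, 22757727 to 22782844, plus strand) was at 12.1, 11.7 and 5.05 CPM in dKO 1, dKO 2 and dKO 3, against 9.89, 7.96 and 6.47 CPM in WT 1, WT 2 and WT 3. In dKO 3 it was below every WT library, and in dKO 1 and dKO 2 above every WT library. The log2 fold change of 0.25 ± 0.32 (SE) did not pass (edgeR adjusted p = 0.549), and its interval, -0.49 to 0.98, includes both a decrease and an increase. Without dKO 3 the log2 fold change was 0.55 (adjusted p = 0.052), and without dKO 1 it was 0.05 (adjusted p = 0.919). Leaving out both WT 2 and dKO 3, Plat was called higher, at 0.54 (adjusted p = 0.0456).

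Serpine2 (ENSMUSG00000026249, chromosome 1, 79794197 to 79861180, minus strand) had 0 counts in all 3 libraries labelled dKO, and 6, 4 and 0 counts in WT 1, WT 2 and WT 3. Many low genes held exactly 4 counts, so a single read pair may add up to 4 counts, and the floor was set at 12 counts per library, which is 0.279 to 0.314 CPM in the libraries labelled dKO and 0.243 to 0.298 CPM in WT. Every library lay under that floor. Serpine2 did not pass the count filter, no fold is given, and a difference was not detectable at this depth.

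Levels between genes can be compared only per length, here as CPM per kilobase of annotated exon. On that scale Plau led in both groups, at 51.0 ± 1.99 in the libraries labelled dKO and 118 ± 1.30 in WT (SD, n = 3 each), which placed it above 93.6% and 97.6% of the 15741 tested genes with an annotated length. Plaur followed at 37.3 ± 3.49 CPM per kilobase in the libraries labelled dKO and 56.0 ± 3.25 in WT, above 90.6% and 94.6% of tested genes. Plat was far lower, at 1.54 ± 0.635 CPM per kilobase in the libraries labelled dKO and 1.30 ± 0.275 in WT, above 31.1% and 27.5%. With exon lengths of 2367, 2617 and 6241 bases, the order Plau, Plaur, Plat was the same in both groups. The gaps were larger than the SD of either neighbour. Their longest annotated transcripts have 2342, 2009 and 4042 bases. With those as length Plaur would come close to Plau in the libraries labelled dKO, and their order in dKO 1 would be reversed. Urokinase transcripts were in large excess over tPA transcripts in both groups: the ratio of Plau to Plat per kilobase of exon was 35.6 in the libraries labelled dKO and 91.9 in WT (geometric means). The longest transcripts as length would give smaller ratios.

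Ratios within a library do not depend on how libraries were scaled to each other. As log2 values, Plau to Plat was 4.66, 4.78 and 6.03 in dKO 1, dKO 2 and dKO 3, against 6.22, 6.51 and 6.84 in WT 1, WT 2 and WT 3, without overlap, with the value of dKO 3 near the WT libraries. The difference was -1.37 (exact permutation test, 2-sided, p = 0.1, the smallest that 3 against 3 libraries allow), and it ran from -1.81 to -1.12 with single libraries left out. Plaur to Plau was -0.28, -0.43 and -0.66 in dKO 1, dKO 2 and dKO 3, against -1.07, -0.97 and -1.17 in WT 1, WT 2 and WT 3. Receptor transcripts were therefore 0.73 times urokinase transcripts per kilobase of exon in the libraries labelled dKO and 0.476 times in WT, a log2 difference of 0.62 (exact permutation p = 0.1, the smallest possible). The longest transcripts as length would raise both of these ratios and leave the difference unchanged. The ratio to Serpine2 could not be given, since Serpine2 was at 0 in 4 of 6 libraries.

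**Figure D2:**
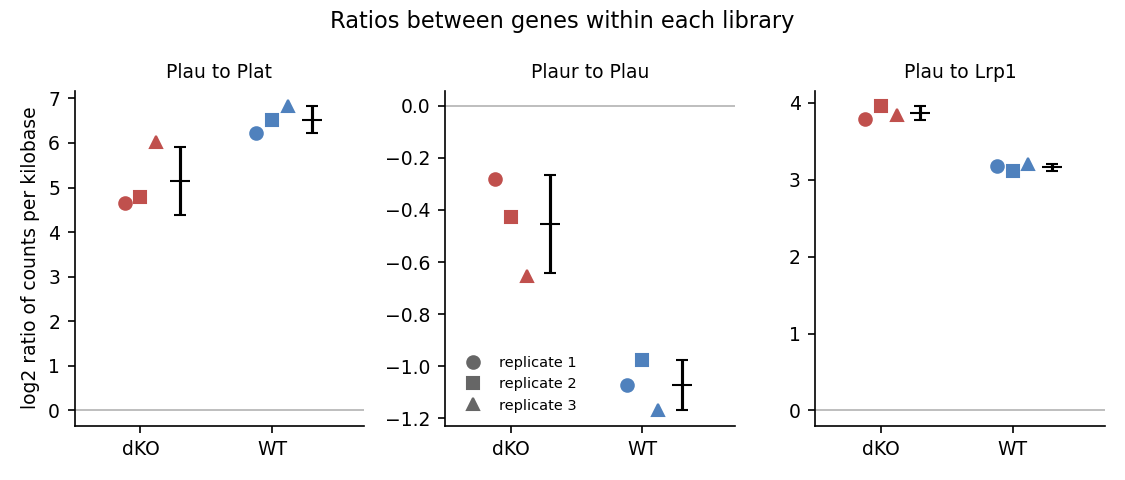
Log2 ratio of counts per kilobase of exon between gene pairs in each library, with libraries labelled dKO in red, WT in blue, symbols for replicates 1 to 3 and black bars for the mean ± SD of 3 libraries. All 3 ratios separate the groups, with the largest difference of means for Plau to Plat, at 5.15 in the libraries labelled dKO and 6.52 in WT.

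The wider pathway was read from 6 lists holding 55 genes besides the members, of which 37 were tested, 13 were higher, 13 were lower and 11 were not called. The share called, 70.3%, stands beside 57.3% of all tested genes, and the median log2 fold change was 0.03 beside -0.01 for all tested genes. Genes near 0 in 1 group, such as Serpinb2, Serpinf2, Itgam and Mmp9, passed the count filter only through the other group and had to differ, so these figures are descriptions. Plg, the plasminogen gene, had 0 counts in all 6 libraries. Plasminogen is made mainly by the liver, and serum contains it.

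In the libraries labelled dKO, the 3 inhibitor genes given here that were tested, Serpinb2, Serpini1 and Serpinf2, were called higher than in WT. Serpinb2, which encodes PAI-2, a urokinase inhibitor, had 881, 866 and 1105 counts in dKO 1, dKO 2 and dKO 3, against 0, 0 and 7 counts in WT 1, WT 2 and WT 3. Serpinb2 was thus detected in the libraries labelled dKO, at 23.4 ± 2.23 CPM, and lay under the floor in WT. Its fitted log2 fold change, 8.75 ± 0.54 (edgeR adjusted p = 2.9e-06), rests on the 7 counts of WT 3 and was 12.95 without that library, so its size is uncertain. Serpinb10, which overlaps Serpinb2 on the same strand, had 8 counts in dKO 3 and 0 elsewhere.

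Serpini1 and Serpinf2 were low in both groups. Serpini1, the gene of neuroserpin, a tPA inhibitor, was at 2.99 ± 0.859 CPM in the libraries labelled dKO and 0.448 ± 0.181 CPM in WT, a log2 fold change of 2.73 ± 0.43 (SE, edgeR adjusted p = 0.000626). Serpinf2, the alpha-2-antiplasmin gene, had 64, 144 and 88 counts in dKO 1, dKO 2 and dKO 3, against 15, 0 and 0 in WT 1, WT 2 and WT 3. It was called (edgeR adjusted p = 0.00629), with a log2 fold change of 4.47 ± 1.06 (SE) that rests on WT 1 and was 9.66 without it, where every WT library is at 0. Serpina5, the protein C inhibitor gene, had 21, 27 and 4 counts in dKO 1, dKO 2 and dKO 3 and 0 in WT, and was not tested. A2m and Cpb2 were at 0 in every library, and Pzp reached at most 0.174 CPM. Of 7 inhibitor genes, 3 were tested and 3 called higher, where 28.6% of all tested genes were called higher. Of these, Serpinb2 and Serpinf2 passed the filter only through the libraries in which they were high, so this count supports nothing about the list. Serpini1 overlaps another annotated gene.

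**Figure D3:**
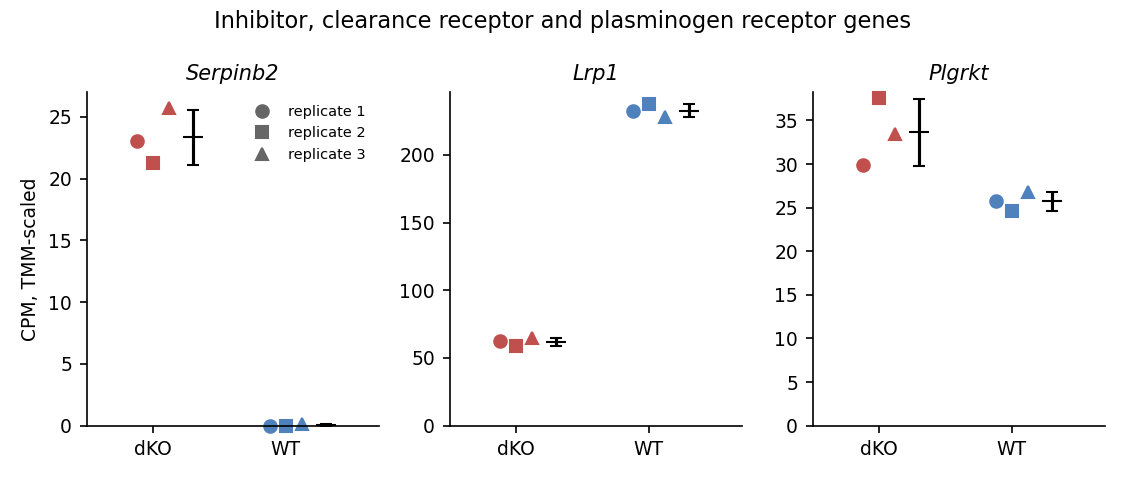
Levels of 3 partner genes in every library, in TMM-scaled CPM from 0, with libraries labelled dKO in red, WT in blue, symbols for replicates 1 to 3 and black bars for the mean ± SD of 3 libraries. Serpinb2 lies higher and Lrp1 lower in the libraries labelled dKO, and Plgrkt differs less.

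Promoter windows are shown for Plaur, the detected member with an entry, and for Serpinb2, the inhibitor gene that was above the floor in the libraries labelled dKO alone, since these genes went opposite ways. The windows run from 250 bases before to 50 bases after the RefSeq start on build GRCm38.p6, 5′ to 3′, Plaur at chr7:24462233-24462532 and Serpinb2 at chr1:107511173-107511472, both on the plus strand. Capitals mark matches, on either strand, to the motifs of TEAD (CATTCC), AP-1 (TGANTCA), NF-kB (GGGA and CC with 4 open bases between them) and SP1 (GGGCGG).
Plaur: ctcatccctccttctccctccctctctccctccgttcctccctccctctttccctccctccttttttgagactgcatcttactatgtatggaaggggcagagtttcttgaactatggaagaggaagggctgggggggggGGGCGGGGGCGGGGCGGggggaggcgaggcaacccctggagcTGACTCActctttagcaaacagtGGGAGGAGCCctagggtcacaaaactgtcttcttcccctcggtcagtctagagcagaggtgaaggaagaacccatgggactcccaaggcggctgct
Serpinb2: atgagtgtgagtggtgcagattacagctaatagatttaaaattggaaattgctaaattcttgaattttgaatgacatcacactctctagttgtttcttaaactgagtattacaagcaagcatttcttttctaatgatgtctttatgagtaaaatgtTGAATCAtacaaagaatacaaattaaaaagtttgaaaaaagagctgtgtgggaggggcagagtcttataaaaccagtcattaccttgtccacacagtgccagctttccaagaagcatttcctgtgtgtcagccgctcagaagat
Each window holds 1 match to the AP-1 motif, TGACTCA starting 69 bases before the start in Plaur and TGAATCA starting 94 bases before it in Serpinb2. That motif is found in 7.81% of 32851 windows of the same length. The Plaur window also holds 3 SP1 matches, of which 2 share a base, and 1 NF-kB match, motifs found in 35.7% and 20.7% of windows. Neither window holds the TEAD letters, which 14.7% of windows hold. A match is a description of letters and not a measured site.

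Lrp1 encodes the endocytic receptor that clears complexes of urokinase, inhibitor and uPAR from the cell surface. It was at 62.3, 58.6 and 65.0 CPM in dKO 1, dKO 2 and dKO 3, against 232, 238 and 228 CPM in WT 1, WT 2 and WT 3. The groups were far apart and tight, with a log2 fold change of -1.91 ± 0.07 (SE, edgeR adjusted p = 1.21e-07). Its fitted decrease was larger than that of Plau, and the log2 ratio of Plau to Lrp1 per kilobase, chosen after the values were seen, was 3.87 ± 0.0850 in the libraries labelled dKO and 3.16 ± 0.0437 in WT (exact permutation p = 0.1, the smallest possible). Lrpap1, which encodes a chaperone of Lrp1, was at 34.2 ± 0.508 CPM in the libraries labelled dKO and 44.3 ± 1.60 CPM in WT (log2 fold change -0.37 ± 0.08, edgeR adjusted p = 0.00403). Egfr, whose product signals together with uPAR, was at 12.2 ± 0.288 CPM in the libraries labelled dKO and 1.88 ± 0.548 CPM in WT (2.71 ± 0.24, adjusted p = 1.84e-05). Itgam, an integrin subunit that pairs with uPAR in myeloid cells, was also called higher, at 0.319 to 0.465 CPM in the libraries labelled dKO and at 0 in WT. Its counts were 13, 13 and 20 in dKO 1, dKO 2 and dKO 3, close to the floor of 12 counts per library. Its mean in these libraries was 1.41 times the mean WT floor. That figure leaves out counting error in the libraries labelled dKO, so the size is uncertain. Lrp1, Egfr, Itgam and Itgav each overlap another annotated gene, whose reads may not be told apart. Vtn, the vitronectin gene, had 0 counts in every library. Of 13 uPAR partners and clearance receptors, 10 were tested, 2 were higher, 2 lower and 6 were not called, a share called of 40.0% beside 57.3% of all tested genes. Itgav, an integrin subunit of a vitronectin receptor, was among the 6, at 270, 264 and 182 CPM in dKO 1, dKO 2 and dKO 3, against 205, 189 and 193 CPM in WT 1, WT 2 and WT 3 (edgeR adjusted p = 0.109), and it was called higher without dKO 3 (adjusted p = 0.000623).

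Plasminogen receptor genes were called in both directions, 3 higher and 3 lower of 6 tested, beside 28.6% higher and 28.7% lower of all tested genes, with a median log2 fold change of -0.06. Plgrkt, which encodes a plasminogen receptor with a C-terminal lysine, was at 29.9, 37.6 and 33.4 CPM in dKO 1, dKO 2 and dKO 3, against 25.7, 24.7 and 26.8 CPM in WT 1, WT 2 and WT 3. Its groups did not overlap but lay close, with a log2 fold change of 0.39 ± 0.11 (SE, edgeR adjusted p = 0.0149), and the call was lost without dKO 2 (0.063) or WT 1 (0.0513). Eno1, the gene of a glycolytic enzyme that also binds plasminogen at the cell surface, was at 1648 ± 53.0 CPM in the libraries labelled dKO and 794 ± 57.6 CPM in WT (1.05 ± 0.07, edgeR adjusted p = 4.56e-06). The partners of one receptor complex went apart: Anxa2 was at 869 ± 62.3 CPM in the libraries labelled dKO and 709.7 ± 7.80 CPM in WT, while S100a10, whose product binds plasminogen, was at 304 ± 27.2 CPM in the libraries labelled dKO and 404 ± 3.70 CPM in WT (edgeR adjusted p = 0.0069 and 0.00155). Krt8, a keratin gene whose product binds plasminogen on epithelial cancer cells, and Hmgb1, a nuclear protein gene, were lower, with log2 fold changes of -0.55 ± 0.12 and -0.53 ± 0.08 (SE, edgeR adjusted p = 0.00404 and 0.000431). Anxa2, Krt8 and Hmgb1 overlap other annotated genes, so their reads cannot be fully separated.

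Among proteases that convert pro-urokinase to its active form, St14, the matriptase gene, was at 245 ± 10.4 CPM in the libraries labelled dKO and 245 ± 7.52 CPM in WT, a log2 fold change of 0.00 with an interval of -0.15 to 0.15 (edgeR adjusted p = 0.994); it overlaps Gm16071. The genes of the inhibitors of matriptase went opposite ways: Spint1 was at 192 ± 16.0 CPM in the libraries labelled dKO and 150.5 ± 3.99 CPM in WT, and Spint2 at 248 ± 16.3 CPM in the libraries labelled dKO and 459 ± 78.1 CPM in WT (edgeR adjusted p = 0.0035 and 0.000212). Ctsl, a lysosomal cysteine protease gene, was at 490.2 ± 51.0 CPM in the libraries labelled dKO and 1794 ± 192 CPM in WT (-1.87 ± 0.11, edgeR adjusted p = 1.33e-06), and it overlaps other annotated genes. Ctsb, a related protease gene, did not pass (edgeR adjusted p = 0.483). Hpn, F12 and Klkb1 stayed under 0.3 CPM in every library, and of 9 genes in the list, which includes Plg, 5 were tested, 1 was higher and 2 were lower, a share called of 60.0%, near the 57.3% of all tested genes.

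Thrombin and coagulation genes bear on the other target of protease nexin-1. Of 8 such genes 5 were tested, 3 were called higher and none lower, where 28.6% of all tested genes were called higher, and each of the 3 calls was lost under some alternatives. F2r, the thrombin receptor gene, was at 102 ± 7.59 CPM in the libraries labelled dKO and 86.9 ± 1.03 CPM in WT (log2 fold change 0.23 ± 0.08, edgeR adjusted p = 0.0299). The call was lost without dKO 1 (0.112), dKO 2 (0.102), WT 1 (0.0915), WT 2 (0.0516) or WT 3 (0.0672), and with a replicate block (0.0559). F2rl1, a related protease-activated receptor gene, and F3, the tissue factor gene, were called with overlapping groups (edgeR adjusted p = 0.0149 and 0.0467). The call of F2rl1 was lost without dKO 1, dKO 2, WT 1 or WT 3, and that of F3 without dKO 1, dKO 2, WT 1 or WT 2 and with a replicate block, with adjusted p up to 0.0613 and 0.177. Procr and Tfpi, the genes of a protein C receptor and of an inhibitor of the tissue factor pathway, did not pass (edgeR adjusted p = 0.73 and 0.129), and F2, the prothrombin gene, reached at most 0.0862 CPM.

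Of 12 genes of proteins that plasmin cuts or activates, 8 were tested, 6 were lower in the libraries labelled dKO, 1 was higher and 1 was not called, where 28.7% of all tested genes were called lower. Their median log2 fold change was -2.01 beside -0.01 for all tested genes, and the count includes Mmp9, which passed the count filter only through WT. Fn1, the gene of fibronectin, a matrix protein cut by plasmin, was at 377, 365 and 608 CPM in dKO 1, dKO 2 and dKO 3, against 7906, 5762 and 8328 CPM in WT 1, WT 2 and WT 3. WT was many times higher throughout, with a log2 fold change of -4.03 ± 0.25 (SE, edgeR adjusted p = 1.01e-05), and Fn1 overlaps Apol7d on the other strand. Mmp3, the stromelysin-1 gene, was at 2.59, 2.11 and 0.861 CPM in dKO 1, dKO 2 and dKO 3, against 173, 239 and 164 CPM in WT 1, WT 2 and WT 3 (-6.71 ± 0.38, adjusted p = 8.98e-06). Mmp13, a collagenase gene, was at 5.15 ± 2.26 CPM in the libraries labelled dKO and 45.1 ± 1.93 CPM in WT, and Mmp14, the gene of a membrane-bound collagenase, at 172 ± 21.5 CPM in the libraries labelled dKO and 320.2 ± 20.6 CPM in WT (edgeR adjusted p = 4.55e-05 and 6.53e-05). Mmp9, a gelatinase gene, was also lower, at 0.172 to 0.419 CPM in the libraries labelled dKO and 590.4 to 772 CPM in WT. Vegfc, a lymphatic growth factor gene whose product plasmin can process, was at 12.9 ± 1.23 CPM in the libraries labelled dKO and 22.8 ± 7.56 CPM in WT (-0.82 ± 0.22, edgeR adjusted p = 0.0111), where leaving out WT 2 gave -0.53. Mst1, the gene of a growth factor related to HGF, was at 4.99 ± 0.740 CPM in the libraries labelled dKO and 0.506 ± 0.196 CPM in WT (edgeR adjusted p = 5.84e-05), and it overlaps Rnf123 on the other strand. The fibrinogen genes Fga and Fgg were at 0 in every library.

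**Figure D4:**
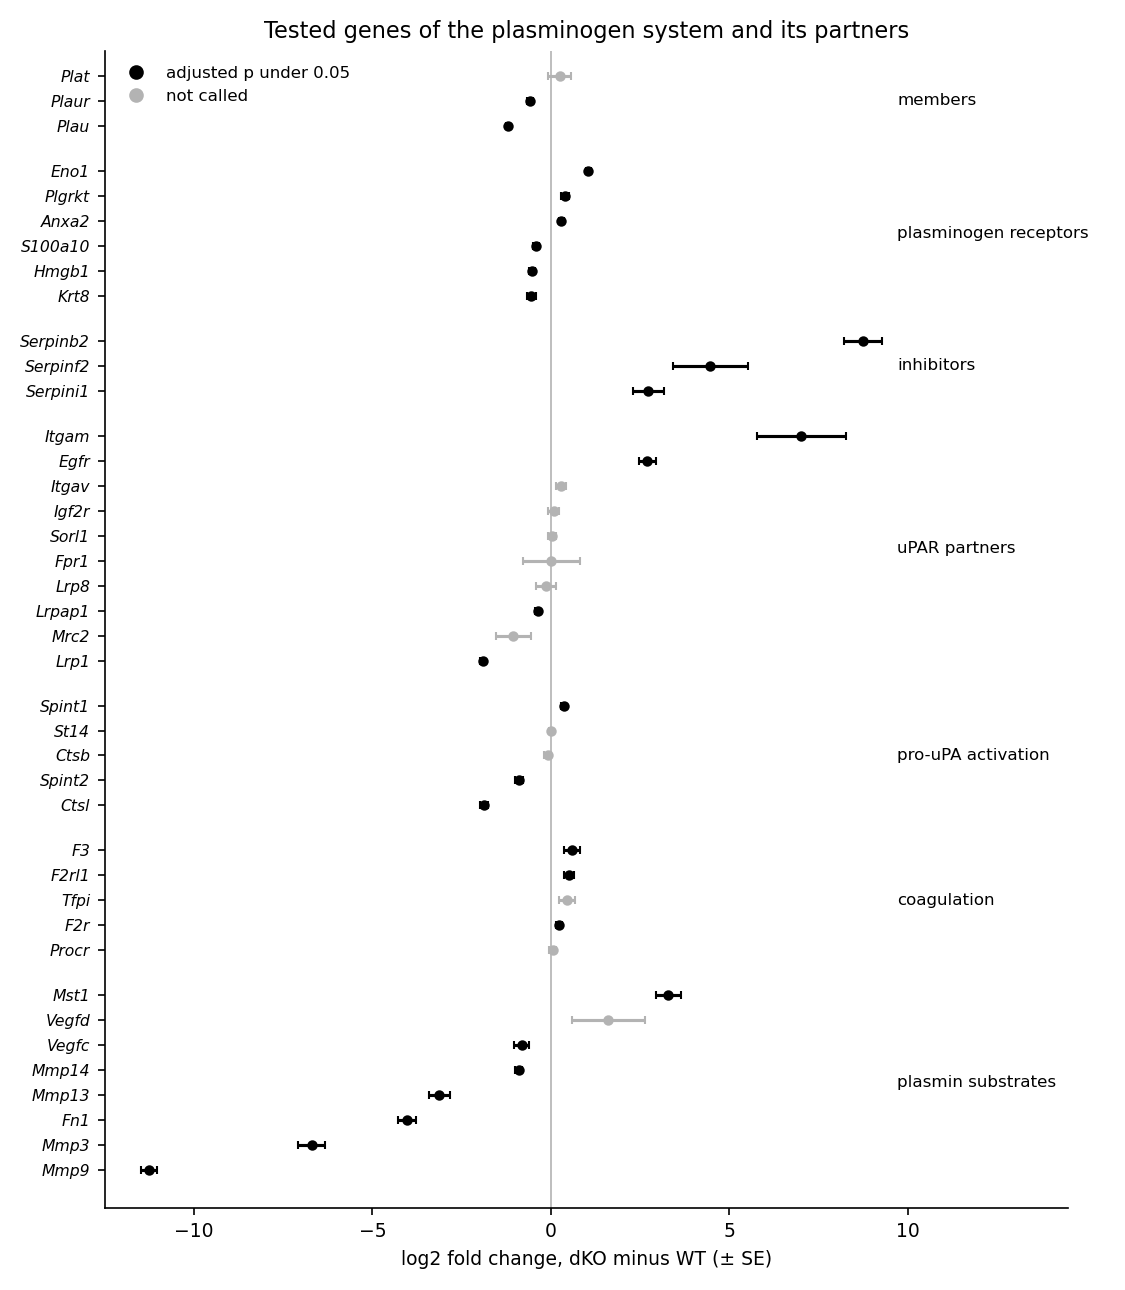
Fitted log2 fold change, dKO minus WT, with its SE on the horizontal axis for the tested members and pathway genes, grouped by role down the page; black points were called at an adjusted p under 0.05 and grey points were not. The 3 inhibitor genes shown lie to the right of 0 and 6 of 8 plasmin substrate genes are called to the left. Of all tested genes, 28.6% were called higher and 28.7% lower. Serpinb2, Serpinf2, Itgam and Mmp9 passed the count filter only through the group in which they were high, so their side was fixed and the counts are descriptions. Their points rest on near-zero counts in 1 group, so their positions are uncertain.

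The genes whose log2 CPM over the 6 libraries was most like that of Plau, by Pearson r, were Txnip, Ncoa5 and Arrdc3, with r of 0.9997, 0.9997 and 0.9996. Their log2 fold changes were -5.48, -1.08 and -6.02 (dKO minus WT), so likeness of shape did not mean likeness of size. Of the genes searched, 635 had an r over 0.99. For Plaur the most alike were Mecom, Kansl1 and Lyn, with r of 0.999, 0.998 and 0.997, and 44 of the genes searched were over 0.99. Plat was closest to Ttbk2, Ifngr2 and Fam135a, with r of 0.986, 0.974 and 0.972, none of which was called between the groups. The points of each r are the same 6 libraries in 2 groups, and each r is a description.

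The nearest tested protein-coding genes along the chromosome did not all move with the members. On either side of Plau, Camk2g was lower at -0.64 ± 0.11 and Vcl, the vinculin gene, was higher at 0.60 ± 0.11 on the log2 scale (SE, edgeR adjusted p = 0.00122 and 0.00139). Beside Plaur, both Smg9 and Cadm4 were lower, at -0.58 ± 0.15 and -0.93 ± 0.09 (adjusted p = 0.0105 and 3.35e-05). Neither neighbour of Plat, Ikbkb and Ap3m2, and neither neighbour of Serpine2, Mrpl44 and Cul3, was called. Distances to the members were unlike, from 4.51 kilobases for Ap3m2 to 403.7 kilobases for Cul3.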

How the data were processed

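RNA-seq of 6 spheroid libraries was used, 3 labelled dKO and 3 labelled WT, grouped by their titles. The authors deposited estimated counts per gene as whole numbers without normalization, and the 6 sample files equalled the columns of the series table. HISAT2 2.2.1, StringTie 2.2.1 and build GRCm38 (mm10) are named in the submitters' processing notes; no source used here gives the counting step, the annotation release or whether strand was used. In each library 678 to 775 genes had exactly 4 counts and 273 to 367 had 5, so a floor of 12 counts per library was set after the values were seen; the floor covers counting error only.

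GENCODE M21, on the same build, matched 48144 of 48820 identifiers. The whole table was tested with edgeR 4.0.16 in R 4.3.3 (filterByExpr, TMM, robust quasi-likelihood F-test, genotype as the only term), with Benjamini-Hochberg adjustment over 15807 genes. The SE is approximate, derived from the log2 fold change and F, and intervals use the t distribution on the fitted degrees of freedom. CPM per kilobase divides by the union of annotated exons. Ratios used exact permutation tests over libraries. Promoter windows came from RefSeq (GRCm38.p6), with entries for 2 of 4 members (not Plau or Plat) and 45 of 55 pathway genes.

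Members and lists were chosen with earlier results of these data known. A gene of the wider lists is not reported here and was left out of their counts. Named genes were the 4 members, called pathway genes with non-overlapping groups and at least 5 CPM in the higher group, up to 6 per list, Plg, Plgrkt and the inhibitors, the 3 genes most like each tested member, and the neighbours. Other genes, such as Mst1 (4.99 CPM in its higher group), F2rl1, F3, Itgam, Itgav and those at or near 0, were named after their values were seen. Alternatives were other normalizations, count filters, thresholds, counts divided by 4, DESeq2 1.42.0, a replicate block and libraries left out.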

Additional observations from a re-analysis of the deposited data

How the results depend on the processing

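Plau, Plaur and Plat were each read under 17 alternatives, and none changed direction. The adjusted p threshold of 0.01 and the test against a 1.5-fold change keep the main log2 fold changes. Under these the direction could not change. Plau was called in all 17, with a log2 fold change of -1.24 to -1.17, and of -1.23 to -1.17 with single libraries left out. Plaur kept its call in 16, and lost it against a 1.5-fold change (log2 fold change -0.58, edgeR adjusted p = 0.532), which asks for a larger change by construction; with single libraries left out its log2 fold change was -0.64 to -0.51. Plat was called only without WT 2 and dKO 3 (0.54, adjusted p = 0.0456), with values of 0.05 to 0.55 when single libraries were left out. Serpine2 had no test under the count filter. Against a 1.5-fold change, 15 pathway genes were called in place of 26, and 4556 genes of all those tested in place of 9060. Under the other 16 alternatives the counts were 21 to 29 and 7067 to 10139. Without WT 2 and dKO 3 they were 29 and 10139.

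The replicate numbers were not treated as pairs: the deviations of same-numbered libraries correlated at -0.06, 0.05 and 0.08, and 3 of 6 libraries correlated best with their own number. With a replicate block the log2 fold changes were -1.21 for Plau, -0.59 for Plaur and 0.17 for Plat (edgeR adjusted p = 1.75e-05, 0.000661 and 0.551), with 24 pathway genes and 8658 genes called. All 3 ratios kept their direction under 9 alternatives each and moved by less than the larger group's SD, and with 3 libraries a group none can pass 0.05. Among the 9, the longest transcript as length shifts every library's log2 ratio alike. It could not move a difference between groups and is no check of it. RLE, upper-quartile and total-count scaling moved the median of all genes by under 0.1 on the log2 scale. Low counts limit Serpine2, Serpinf2, Serpina5, Itgam and the WT level of Serpinb2.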
